A study of Mus musculus with 12 samples.

Results

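The circadian clock genes of the mouse prostate are described here through 10 members chosen by name: Arntl, Per1, Per2, Per3, Cry1, Ciart, Nr1d1, Nr1d2, Dbp and Tef. All 10 were found by symbol among the 26023 genes of the F3 table and the 19091 genes of the F1 table, and all 10 passed the filter on low counts in both. Poly-A RNA of the prostate was sequenced in F1 and F3 males after pregnant females, the F0 animals, were dosed, and in control males of the same generations. The F3 chlordecone group held 3 libraries from males bred on from the dosed line to the F3 generation, and the labels name no dosing after F0, against 3 F3 control libraries. The F1 chlordecone group held 3 libraries from the sons of dosed females, which were in the womb during dosing, against 2 F1 control libraries, since F1 control 3 was not analysed here. Chlordecone, also called kepone, is a persistent organochlorine insecticide with oestrogen-like activity. The dose was 100 µg/kg/day, given between E6.5 and E15.5 of gestation. The labels give no strain, age or time of day of collection, no vehicle for the controls, and no word on whether a library came from 1 male or a pool, or whether males shared a litter. The p-values therefore measure only the spread between these libraries, which may be technical in part.

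The circadian clock is a feedback loop that runs in nearly every cell. The BMAL1 protein, encoded by Arntl, pairs with CLOCK and switches on the Per and Cry genes, Ciart, Nr1d1, Nr1d2 and Dbp through E-boxes in their regulatory DNA. The PER, CRY and CIART proteins block that activator, while NR1D1 and NR1D2, the REV-ERB nuclear receptors, repress Arntl. DBP and TEF are related leucine zipper factors that carry the rhythm to output genes through D-boxes. In most peripheral tissues of the mouse these transcripts rise and fall over the day, and Dbp and Nr1d1 peak when Arntl is near its trough.

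Total counts per library ran from 71672418 to 114762135 in F3 and from 17228539 to 28061760 in F1. Levels are in CPM, the read count scaled to the size of its library with the TMM method within each generation. The summed level of 7 prostate secretory markers was 87588 to 96936 CPM in F3 chlordecone and 92698 to 105480 CPM in F3 control libraries, and 52192 to 89176 CPM in F1 chlordecone against 85863 to 101886 CPM in F1 control libraries. The F3 libraries held far less seminal vesicle RNA than the F1 libraries: 7 seminal vesicle markers summed to 9.91 to 16.4 CPM in F3 chlordecone and 10.5 to 70.2 CPM in F3 control libraries, and to 187024 to 528811 CPM in F1 chlordecone and 118447 to 121062 CPM in F1 control libraries. The 2 F1 controls differed from each other by a chi-square of 16.3 per gene on raw counts, against 307.7 to 582 for pairs of F1 chlordecone libraries. Pairs within an F3 group had 46.7 to 177.3. The measure grows with the number of counts, which was larger in F3, so it does not compare the generations. In bulk tissue, fewer cells of a type and less RNA per cell cannot be told apart. A transcript measured in such a library is an average over all the tissue it holds.

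The promoters of the members are shown because the clock factors act through short DNA words that can be read in them. RefSeq start sites on GRCm38.p6 gave a window of the 250 bases before the start for 9 of the 10 members, all but Per2, and for 12 start sites in all, as Tef, Per1 and Arntl have 2 each. The words searched on both strands were the E-box CACGTG, its variant CACGTT, the D-box TTATGTAA or TTACGTAA, and AGGTCA, the core of the element shared by the REV-ERB and ROR receptors. Capitals mark the matches in the windows of the members on which the results turn, and of Per3 and Ciart for their paired or repeated words.
Dbp, chr7:45704997-45705246, plus strand: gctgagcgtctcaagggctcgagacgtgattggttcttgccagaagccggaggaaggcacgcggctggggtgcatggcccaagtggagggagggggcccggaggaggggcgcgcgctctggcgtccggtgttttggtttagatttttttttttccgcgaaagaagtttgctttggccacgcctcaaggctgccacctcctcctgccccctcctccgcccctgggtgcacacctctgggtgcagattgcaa
Tef, chr15:81802423-81802672, plus strand: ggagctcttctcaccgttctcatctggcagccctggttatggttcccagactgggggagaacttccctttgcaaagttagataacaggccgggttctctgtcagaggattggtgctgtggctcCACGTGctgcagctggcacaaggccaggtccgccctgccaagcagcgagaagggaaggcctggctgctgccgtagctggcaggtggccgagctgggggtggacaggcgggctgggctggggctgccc
Cry1, chr10:85185055-85185304, minus strand: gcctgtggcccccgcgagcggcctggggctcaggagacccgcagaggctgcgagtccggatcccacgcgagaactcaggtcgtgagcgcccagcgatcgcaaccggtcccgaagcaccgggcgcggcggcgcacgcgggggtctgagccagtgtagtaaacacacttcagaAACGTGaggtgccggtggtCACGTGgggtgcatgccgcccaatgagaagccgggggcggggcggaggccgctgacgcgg
Per3, chr4:151044666-151044915, minus strand: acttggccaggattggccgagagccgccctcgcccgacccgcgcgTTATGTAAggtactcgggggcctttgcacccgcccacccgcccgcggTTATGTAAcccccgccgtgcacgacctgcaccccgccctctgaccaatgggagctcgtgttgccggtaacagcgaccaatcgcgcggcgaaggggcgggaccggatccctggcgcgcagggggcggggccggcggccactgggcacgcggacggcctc
Ciart, chr3:95882229-95882478, minus strand: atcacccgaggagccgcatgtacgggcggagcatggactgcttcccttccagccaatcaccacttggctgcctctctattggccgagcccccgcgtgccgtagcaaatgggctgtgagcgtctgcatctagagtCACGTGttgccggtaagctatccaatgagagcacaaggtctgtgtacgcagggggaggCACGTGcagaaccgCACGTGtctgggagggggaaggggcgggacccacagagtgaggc
The E-box CACGTG stood in 5 of the 12 windows, those of Tef (both start sites), Per1, Cry1 and Ciart, while 6.02% of all 32851 promoter windows of the same length hold it. In Tef it began 127 bases before the start site shown, in Cry1 60 bases before, and Ciart had 3, which began 116, 58 and 44 bases before. CACGTT stood in 2 windows, on the other strand in Cry1, 79 bases before the start site, and in Nr1d1, 28 bases before, with 3.85% of all windows as the background. The D-box stood in 1 window, that of Per3, which holds it at 205 and 158 bases before the start site, against 0.931% of all windows. AGGTCA stood in Per1, 137 bases before the start site, and in Nr1d2, 77 bases before, and 14% of all windows hold it. None of these letters was found in the windows of Dbp and Arntl, which says nothing about sites elsewhere in the genes.

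Levels were compared between genes per kilobase of exon, using GENCODE M21 exon lengths. Of the genes matched to GENCODE M21, 78.9% in F3 but 2.11% in F1 had the same start and end there. The F1 values per kilobase may therefore rest on gene models other than those counted. Across the groups the members spanned more than an order of magnitude, with Per2 and Per3 lowest. In F3 chlordecone prostates the order was Nr1d1 at 13.2 CPM per kb, Nr1d2 at 12.5, Tef at 10.3, Dbp at 7.41, Per1 at 5.24, Cry1 at 2.49, Arntl at 1.16, Ciart at 0.802, and Per2 and Per3 both at 0.437. In F3 control prostates Dbp led at 17.7 CPM per kb, followed by Nr1d1 at 16.3, Nr1d2 at 13.4, Tef at 10.5, Per1 at 4.79, Cry1 at 1.70, Arntl at 0.848, Ciart at 0.761, Per3 at 0.415 and Per2 at 0.339. The step from Dbp to Nr1d1 in the controls and all steps from Nr1d1 to Per1 in the chlordecone group lay within the range of their libraries, so these neighbours cannot be ordered. The same held from Nr1d1 to Nr1d2 in the controls, from Arntl to Ciart in both F3 groups, and between Per2 and Per3 in the chlordecone group. In F1 chlordecone prostates Nr1d2 was highest at 10.1 CPM per kb, then Dbp at 5.59, Cry1 at 4.87, Nr1d1 at 3.97, Tef at 2.97, Per1 at 2.41, Ciart at 1.18, Arntl at 1.08, Per3 at 0.836 and Per2 at 0.528, and every neighbouring pair overlapped except Per1 with Ciart. In F1 control prostates the order was Nr1d2 at 7.09 CPM per kb, Cry1 at 6.47, Dbp at 3.81, Nr1d1 at 2.49, Ciart at 2.38, Per1 at 2.05, Tef at 1.18, Arntl at 1.13, Per2 at 0.731 and Per3 at 0.568, with overlap from Nr1d1 to Per1 and between Tef and Arntl. Cry1 ranked sixth in both F3 groups and higher, above Tef, in both F1 groups, a description, since the F3 and F1 tables were made differently.

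**Figure D1:**
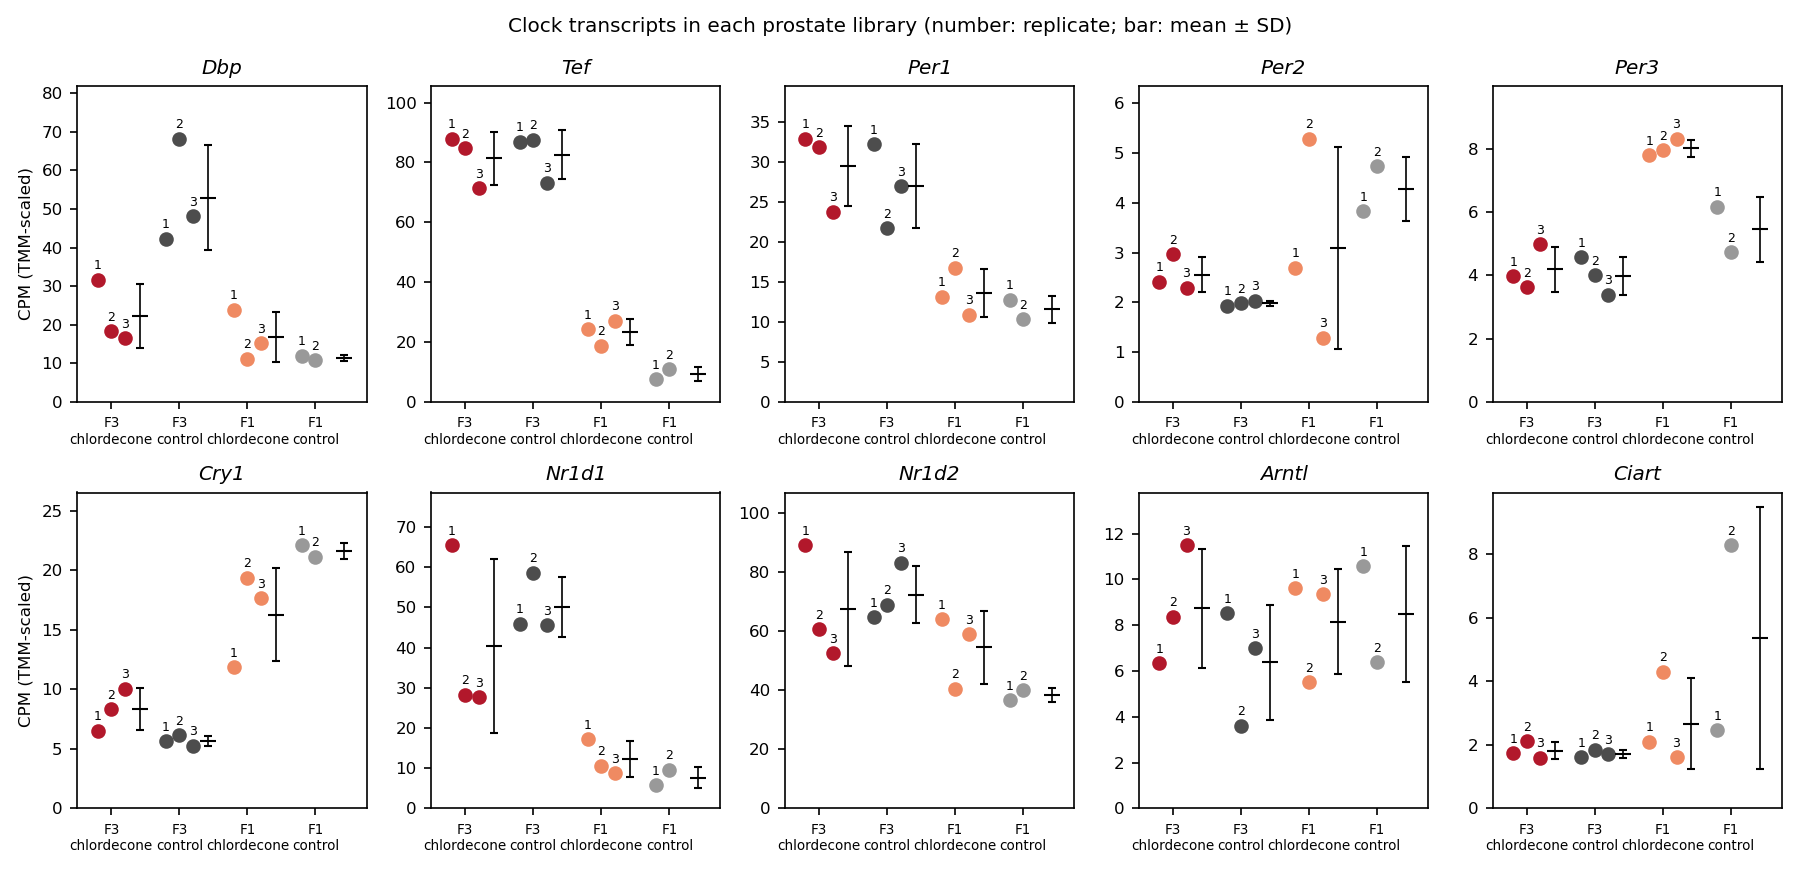
Levels of the 10 clock genes in CPM in each of the 11 libraries, 1 point per library, with the group mean marked, chlordecone left of control within F3 and F1. In F3 the Dbp points of the chlordecone libraries (16.5 to 31.7 CPM) lie below those of the controls (42.3 to 68.2 CPM), and in F1 the Tef points of the chlordecone libraries (18.7 to 27.2 CPM) lie above those of the controls (7.60 and 11 CPM).

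In F3 the member that stood apart was Dbp, the D-box factor whose mRNA is among the most rhythmic of the clock. Dbp had 31.7, 18.4 and 16.5 CPM in F3 chlordecone 1, 2 and 3, against 42.3, 68.2 and 48.1 CPM in F3 control 1, 2 and 3. The groups did not overlap, with chlordecone 1 nearest to the controls and control 2 the highest library. Dbp averaged 22.2 ± 8.27 CPM in F3 chlordecone and 52.9 ± 13.6 CPM in F3 control prostates (SD, n = 3 each), a log2 fold change of -1.25 (SE 0.28, 95% interval -1.89 to -0.62). The unadjusted p of edgeR's quasi-likelihood test was 0.00179 and the Benjamini-Hochberg adjusted p over 16766 genes was 0.311, which missed the threshold of 0.05. With the Wald test of DESeq2 the adjusted p was 0.00141, and the authors' deposited table gives a log2 fold change of -0.952 with an adjusted p of 0.00243. The call therefore depends on the test, while the direction was the same with each library left out in turn (log2 fold change -1.60 to -1.04).

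Tef, the other D-box factor, was level in F3, with 88.0, 84.9 and 71.4 CPM in F3 chlordecone and 86.9, 87.6 and 73.2 CPM in F3 control libraries. Its groups overlapped almost completely, and the log2 fold change was -0.02 (SE 0.13), with a 95% interval of -0.32 to 0.28. That interval lies wholly above the one of Dbp. The 2 factors thus had intervals that did not meet in the same libraries, although the difference between them was not itself tested.

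Among the repressors, Cry1 was the other member with an unadjusted p under 0.05 in F3. Cry1 had 6.54, 8.32 and 10.1 CPM in F3 chlordecone 1, 2 and 3 and 5.62, 6.12 and 5.26 CPM in F3 control libraries. All 3 chlordecone libraries were above all 3 controls, though chlordecone 1 only narrowly, and the log2 fold change was 0.55 (SE 0.20, unadjusted p 0.0230, edgeR adjusted p 0.435, DESeq2 adjusted p 0.227). Per2, a core repressor, had 2.42, 2.96 and 2.29 CPM in F3 chlordecone and 1.94, 1.98 and 2.03 CPM in F3 control libraries. Its groups did not overlap either, at a log2 fold change of 0.37 (SE 0.21, edgeR adjusted p 0.548), and the controls were closer together than those of nearly all genes (highest over lowest 1.05, where the median gene had 1.45). The other repressors overlapped between the groups. Per1, which also responds acutely to light and to hormones, had 32.9, 31.8 and 23.8 CPM in F3 chlordecone and 32.2, 21.7 and 26.9 CPM in F3 control libraries (log2 fold change 0.13, SE 0.19). Per3, a nonessential paralog in the mouse, had 3.98, 3.63 and 4.98 CPM in F3 chlordecone and 4.57, 4.0 and 3.39 CPM in F3 control libraries (log2 fold change 0.07, SE 0.21). Ciart, also known as CHRONO, a repressor of the BMAL1 and CLOCK pair, had 1.73, 2.11 and 1.59 CPM in F3 chlordecone and 1.61, 1.85 and 1.70 CPM in F3 control libraries (log2 fold change 0.08, SE 0.23).

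The REV-ERB receptors were uneven within the F3 chlordecone group. Nr1d1 had 65.5, 28.2 and 27.7 CPM in F3 chlordecone 1, 2 and 3, against 45.9, 58.6 and 45.6 CPM in the F3 controls. Chlordecone 1 was the highest of the 6 libraries and the other 2 the lowest, so that the log2 fold change of -0.31 had an SE of 0.32 (edgeR adjusted p 0.726). Nr1d2 had 89.1, 60.6 and 52.4 CPM in F3 chlordecone and 64.8, 68.8 and 83.1 CPM in F3 control libraries, with the same order of the chlordecone libraries and a log2 fold change of -0.10 (SE 0.20). The highest library over the lowest was 2.37 for Nr1d1 within the F3 chlordecone group, where the median gene had 1.27. Arntl, the activator, had 6.33, 8.38 and 11.5 CPM in F3 chlordecone 1, 2 and 3 and 8.52, 3.61 and 7.01 CPM in the F3 controls. Its groups overlapped (log2 fold change 0.45, SE 0.34, edgeR adjusted p 0.623), with the highest library in the chlordecone group and the lowest, control 2, among the controls.

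Counted over the list, 0 of 10 members passed the edgeR threshold in F3, where 10 of 16766 genes did (0.0596%). At an unadjusted p under 0.05 there were 2 members, Dbp and Cry1, against 10.6% of all genes tested, and DESeq2 called 1 member, Dbp, against 1.28% of all genes. The F3 groups did not overlap for 3 members, 2 higher and 1 lower in chlordecone, against 16.6% of all genes (8.34% higher and 8.25% lower), and they overlapped for 7. The median log2 fold change of the members was 0.08, beside -0.01 for all genes tested. With 10 members these shares rest on 1 to 3 genes, and whether they exceed those of all genes was not tested. Markers of other tissue differed between the F3 groups as well. The 5 urothelium markers summed to 187 to 223 CPM in F3 chlordecone and 114 to 158 CPM in F3 control libraries, and 4 Schwann cell and nerve markers to 2.83 to 4.98 CPM in F3 chlordecone and 5.25 to 6.90 CPM in F3 control libraries. The 5 vas deferens and epididymis markers in the F3 table summed to under 1 CPM in every F3 library, the range being 0.274 to 0.349 CPM in chlordecone and 0.0990 to 0.133 CPM in control libraries. F3 control 2, highest in Dbp, also had the highest adipocyte (197 CPM) and smooth muscle (3889 CPM) marker sums of the F3 libraries. The same held for striated muscle (291 CPM) and seminal vesicle (70.2 CPM), and the F3 groups overlapped for each of these lists. The part of these tissues in the clock result was not tested.

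**Figure D2:**
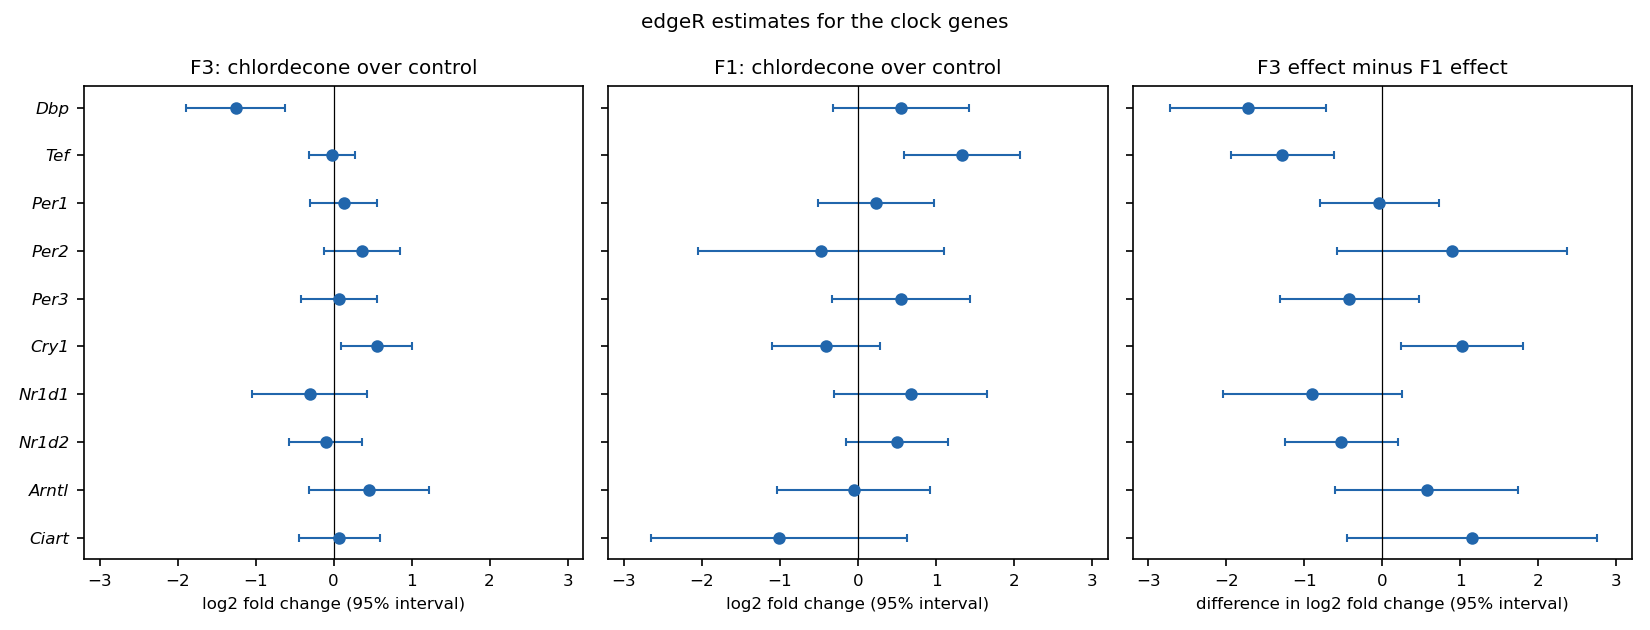
Log2 fold change of each clock gene, chlordecone over control, with its 95% interval from the edgeR fit, for F3 and F1. The last panel gives the F3 effect minus the F1 effect. The F3 interval of Dbp (-1.89 to -0.62) and the F1 interval of Tef (0.59 to 2.08) do not include 0 and lie on opposite sides of it. Of the other F3 and F1 intervals, that of Cry1 in F3 (0.10 to 1.01) also leaves out 0. In the last panel the intervals of Dbp (-2.72 to -0.73), Tef (-1.94 to -0.63) and Cry1 (0.24 to 1.80) leave out 0.

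In F1 it was Tef, not Dbp, that stood apart. Tef had 24.4, 18.7 and 27.2 CPM in F1 chlordecone 1, 2 and 3, against 7.60 and 11 CPM in F1 control 1 and 2. Every chlordecone library was above both controls, and the means were 23.4 ± 4.31 CPM (SD, n = 3) and 9.28 ± 2.38 CPM (SD, n = 2), 2.52-fold higher in chlordecone. The log2 fold change was 1.33 (SE 0.32, 95% interval 0.59 to 2.08), with an unadjusted p of 0.00322 and an adjusted p of 0.213 by edgeR's quasi-likelihood test. DESeq2 gave an adjusted p of 0.0187, and the authors' deposited table gives a log2 fold change of 1.33 with an adjusted p of 0.0250. Left out in turn, each library kept the sign (log2 fold change 1.10 to 1.63), and without F1 chlordecone 2 the edgeR adjusted p was 0.0133. Dbp, in contrast to F3, had 23.8, 11.2 and 15.2 CPM in F1 chlordecone and 12 and 10.8 CPM in F1 control libraries. Chlordecone 1 was high and chlordecone 2 lay between the controls, so the log2 fold change of 0.55 had an SE of 0.38 (edgeR adjusted p 0.635).

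The F1 repressors did not move as a group. Cry1 had 11.8, 19.4 and 17.6 CPM in F1 chlordecone and 22.1 and 21.1 CPM in F1 control libraries, all 3 below both controls (log2 fold change -0.41, SE 0.30, edgeR adjusted p 0.662). Per3 had 7.80, 7.96 and 8.33 CPM in F1 chlordecone and 6.18 and 4.73 CPM in F1 control libraries, all 3 above both controls (log2 fold change 0.56, SE 0.38, edgeR adjusted p 0.640). The Per3 chlordecone libraries were among the most even of any gene, with a highest over lowest of 1.07 where the median gene had 1.98. Per1 had 13.1, 16.7 and 10.9 CPM in F1 chlordecone and 12.8 and 10.4 CPM in F1 control libraries, which overlapped (log2 fold change 0.23, SE 0.33). Per2 had 2.69, 5.29 and 1.29 CPM in F1 chlordecone and 3.82 and 4.73 CPM in F1 control libraries, so that chlordecone 2 was above and the other 2 below both controls (log2 fold change -0.47, SE 0.68). Ciart had 2.1, 4.31 and 1.61 CPM in F1 chlordecone and 2.46 and 8.29 CPM in F1 control libraries. Its log2 fold change of -1.01 (SE 0.71) rested on control 2, and without that library it was 0.12.

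For the REV-ERB receptors in F1, Nr1d1 had 17.3, 10.6 and 8.79 CPM in chlordecone and 5.76 and 9.56 CPM in control libraries, with chlordecone 3 between the controls (log2 fold change 0.67, SE 0.43, edgeR adjusted p 0.606). Nr1d2 had 63.9, 40.5 and 58.9 CPM in F1 chlordecone and 36.7 and 40.1 CPM in F1 control libraries. Chlordecone 2 cleared the higher control by a narrow margin, and the log2 fold change was 0.51 (SE 0.28, edgeR adjusted p 0.555). Without F1 chlordecone 2 it was 0.67 and the adjusted p was 0.0349. Arntl had 9.62, 5.51 and 9.34 CPM in F1 chlordecone and 10.6 and 6.37 CPM in F1 control libraries, with a log2 fold change of -0.05 (SE 0.43) and a 95% interval of -1.03 to 0.93.

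In F1, 0 of 10 members passed the edgeR threshold, where 5 of 17804 genes did (0.0281%). DESeq2 called 1 member, Tef, against 3.89% of all genes, and at an unadjusted p under 0.05 there was 1 member against 11.5% of all genes. The F1 groups did not overlap for 4 members, with Tef, Per3 and Nr1d2 higher and Cry1 lower in chlordecone, against 31.3% of all genes (16.2% higher and 15.1% lower), in a comparison with 2 controls. The median log2 fold change of the members was 0.37, beside 0.02 for all genes tested. The edgeR calls moved with single libraries: without F1 chlordecone 2, the library with the highest share of Svs4 (29.8% of its counts), 2604 genes and 2 members, Tef and Nr1d2, passed, and without F1 control 1, F1 control 2 or F1 chlordecone 3 the number of genes that passed was 0. Markers of other cell types and organs differed between the F1 groups too. Of the 7 seminal vesicle markers summed above, Svs2, Svs5 and Pate4 were higher in every F1 chlordecone library than in both controls, while Svs1, Svs3a, Svs4 and Svs6 were lower than both controls in chlordecone 1 and 3 and higher in chlordecone 2. Of the vas deferens and epididymis list, 4 of 7 vas deferens and epididymis markers were in the F1 table, and they summed to 103 to 44289 CPM in chlordecone and 24.8 to 24.9 CPM in control libraries. The 6 smooth muscle markers summed to 4272 to 10959 CPM in F1 chlordecone and 3689 to 3775 CPM in F1 control libraries, the 3 basal epithelium markers to 23.9 to 28.0 CPM in chlordecone and 7.91 to 10.4 CPM in control libraries, and the 4 Schwann cell and nerve markers to 46.9 to 162 CPM in chlordecone and 24.4 to 29.4 CPM in control libraries. The 4 adipocyte markers summed to 61.3 to 257 CPM in F1 chlordecone and 19.4 to 26.2 CPM in F1 control libraries, and the 5 striated muscle markers to 172 to 375 CPM in chlordecone and 131 to 152 CPM in control libraries. The part of these cell types and organs in the higher Tef was not tested.

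A fit of the 11 libraries together, over 16980 genes, asked whether the chlordecone effect differed between F3 and F1. Dbp, Tef and Cry1 had the largest differences relative to their errors. For Dbp the F3 effect minus the F1 effect was -1.73 (SE 0.46) on the log2 scale, with an edgeR adjusted p of 0.0916 and a DESeq2 adjusted p of 0.0131. For Tef it was -1.28 (SE 0.30), with an edgeR adjusted p of 0.0646 and a DESeq2 adjusted p of 0.00203. For Cry1, higher than control in F3 and lower in F1, it was 1.02 (SE 0.36), with an edgeR adjusted p of 0.170 and a DESeq2 adjusted p of 0.102. The other 7 members had edgeR adjusted p-values of 0.418 or more. With edgeR, 0 of 10 members passed, against 0.718% of all genes. DESeq2 called 2, Dbp and Tef, against 6.9% of all genes, and at an unadjusted p under 0.05 there were 3 members, against 16.9% of all genes. Without F1 chlordecone 2, edgeR called 3 members, Dbp, Tef and Cry1, but 2320 genes passed in that fit, against 122 with all libraries. Leaving out any F3 library, F1 chlordecone 1 or F1 chlordecone 3 called 0 members. The fold changes of 8 of the 10 members had opposite signs in F3 and F1, and those of Per1 and Per3 were positive in both. Some of these signs rest on log2 fold changes near 0, as in F3 for Tef (-0.02, SE 0.13), Nr1d2 (-0.10, SE 0.20) and Ciart (0.08, SE 0.23). The same holds for Arntl in F1 (-0.05, SE 0.43). The share of all genes with opposite signs was not counted, so the number is a description.

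**Figure D3:**
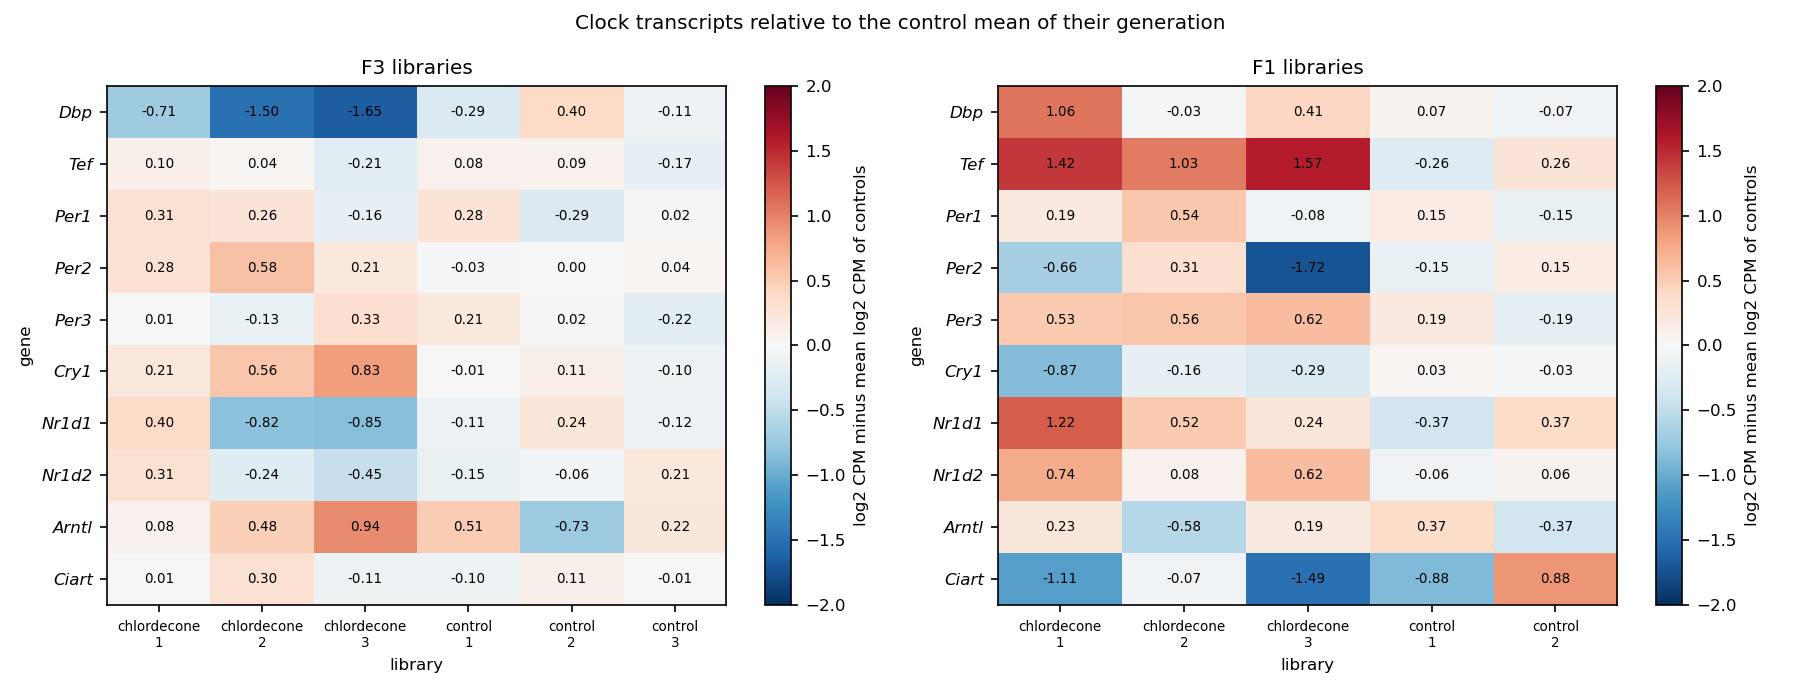
Log2 CPM of each clock gene in each library minus the mean log2 CPM of the controls of its generation, F3 libraries in the left panel and F1 libraries in the right, red for higher and blue for lower. In F3 chlordecone 2 and 3, Dbp (-1.5 and -1.65) and Nr1d1 (-0.82 and -0.85) are low and Cry1 (0.56 and 0.83) and Arntl (0.48 and 0.94) high, and in F1 the Tef row is high in all 3 chlordecone libraries (1.42, 1.03 and 1.57).

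Read across genes within a library, single F3 libraries stood at the ends of the range for several members at once. F3 chlordecone 3 had the highest Arntl and Cry1 and the lowest Dbp, Nr1d1 and Nr1d2 of the 6 F3 libraries, and F3 control 2 had the highest Dbp and the lowest Arntl. F3 chlordecone 1 had the highest Nr1d1 and Nr1d2 of all 6, with a Dbp below every control. The ratio of Dbp to Arntl CPM, which sets an output gene against the activator, was 5.0, 2.19 and 1.44 in F3 chlordecone 1, 2 and 3 and 4.97, 18.9 and 6.86 in F3 control 1, 2 and 3. Chlordecone 1 lay just above control 1, so the ratios overlapped, with the other 2 chlordecone libraries below every control. In F1 the ratio was 2.48, 2.03 and 1.63 in chlordecone and 1.13 and 1.70 in control libraries, with overlap. The ratio of Nr1d1 to Arntl was 10.3, 3.37 and 2.41 in F3 chlordecone and 5.39, 16.3 and 6.51 in F3 control libraries, and 1.79, 1.93 and 0.941 in F1 chlordecone and 0.545 and 1.5 in F1 control libraries. These ratios are descriptions with no test.

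**Figure D4:**
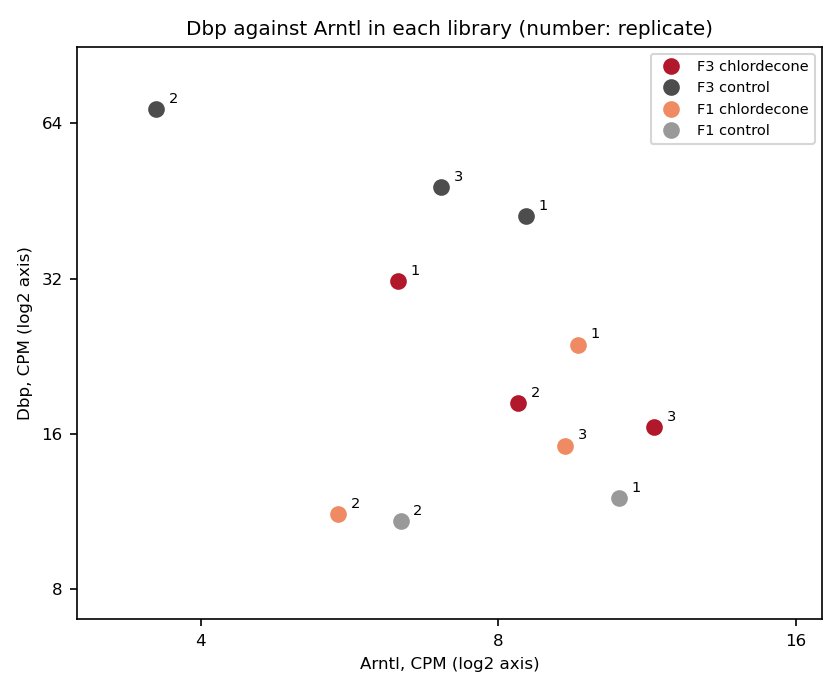
Dbp against Arntl in CPM (both axes logarithmic), 1 point per library, for the F3 and F1 chlordecone and control groups. F3 control 2 lies at the highest Dbp (68.2 CPM) and lowest Arntl (3.61 CPM) and F3 chlordecone 3 at a low Dbp (16.5 CPM) and the highest Arntl (11.5 CPM), and the F1 libraries lie at 10.8 to 23.8 CPM of Dbp.

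The rest of the clock machinery, a list of 16 components, showed no call in F3 among the 15 tested, as Arntl2, a paralog of Arntl, was too low, and no call in F1 among 16. DESeq2 called 0 in F3 and 1 in F1, against 1.28% and 3.89% of all genes. Clock, the partner of BMAL1, was the 1 component with an unadjusted p under 0.05 in F3, against 10.6% of all genes. It had 63.2, 54.3 and 45.3 CPM in F3 chlordecone and 37.2, 32.9 and 44.3 CPM in F3 control libraries, a narrow separation (log2 fold change 0.51, SE 0.17, edgeR adjusted p 0.414). In F1 it was level, with means of 50.2 ± 1.47 CPM in chlordecone (SD, n = 3) and 50.4 ± 3.16 CPM in control libraries (SD, n = 2). In F1 there were 3 components with an unadjusted p under 0.05, all lower in chlordecone, against 11.5% of all genes in either direction. Nfil3, a repressor that competes with DBP and TEF for D-boxes, had 7.87, 7.82 and 9.56 CPM in F3 chlordecone and 8.38, 6.55 and 5.18 CPM in F3 control libraries, which overlapped. In F1 it had 4.67, 3.87 and 3.13 CPM in chlordecone and 13 and 9.89 CPM in control libraries. The F1 groups were well apart, on the side opposite to Tef (log2 fold change -1.55, SE 0.40, edgeR adjusted p 0.226, DESeq2 adjusted p 0.0275), and Nfil3 was the component that DESeq2 called. The F3 effect on Nfil3 minus the F1 effect was 1.94 (SE 0.41, edgeR adjusted p 0.0522, DESeq2 adjusted p 0.000670). Npas2, which can stand in for CLOCK, averaged 4.48 ± 1.32 CPM in F1 chlordecone (SD, n = 3) and 10.2 ± 3.15 CPM in F1 control libraries (SD, n = 2), with a log2 fold change of -1.19 (edgeR adjusted p 0.363). Rora, an activator of Arntl, averaged 41.5 ± 8.49 CPM in F1 chlordecone (SD, n = 3) and 65.0 ± 8.07 CPM in F1 control libraries (SD, n = 2), with a log2 fold change of -0.65 (edgeR adjusted p 0.415). Cry2, the paralog of Cry1, had a log2 fold change of 0.27 in F3 (SE 0.14, edgeR adjusted p 0.506). The groups of the list did not overlap for 1 of 15 in F3, against 16.6% of all genes, and for 7 of 16 in F1, 2 higher and 5 lower, against 31.3% of all genes (16.2% higher and 15.1% lower). The list summed to 351.8 to 420 CPM in F3 chlordecone and 317 to 349.8 CPM in F3 control libraries, a very narrow separation. Csnk1d alone gave 127 to 171 CPM of the F3 sums, and its F3 groups overlapped. In F1 the list summed to 273 to 289 CPM in chlordecone and 277 to 289 CPM in control libraries. The median log2 fold change of the list was 0.04 in F3 and -0.03 in F1, beside -0.01 and 0.02 for all genes.

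Known output genes of the clock gave no call. Of 7 tested in each generation, edgeR and DESeq2 called 0. At an unadjusted p under 0.05 there were 0, against 10.6% of all genes in F3 and 11.5% in F1. The groups overlapped for 7 of 7 in F3 and did not for 3 of 7 in F1, 1 higher and 2 lower, against 16.6% of all genes not overlapping in F3 and 31.3% in F1. The median log2 fold change was -0.07 in F3 and 0.16 in F1. The smallest adjusted p was 0.780 in F3, for Leo1, and 0.573 in F1, for Tspan4. Wee1, a cell-cycle kinase that BMAL1 and CLOCK drive in mouse liver, averaged 38.5 ± 4.59 CPM in F3 chlordecone and 40.6 ± 6.06 CPM in F3 control libraries (SD, n = 3 each). Nampt, the rate-limiting enzyme of NAD salvage, averaged 60.4 ± 2.36 CPM in F3 chlordecone and 62.0 ± 6.58 CPM in F3 control libraries. Usp2, a deubiquitinase, averaged 2.92 ± 0.303 CPM in F3 chlordecone and 3.13 ± 0.697 CPM in F3 control libraries. None of these 3 differences exceeded the spread between libraries. In F1, Wee1 averaged 25.8 ± 4.05 CPM in chlordecone (SD, n = 3) and 33.3 ± 1.88 CPM in control libraries (SD, n = 2), with every chlordecone library below both controls (log2 fold change -0.37, edgeR adjusted p 0.637). Nampt averaged 105 ± 28.4 CPM in F1 chlordecone and 72.7 ± 9.16 CPM in F1 control libraries, which overlapped (log2 fold change 0.54, edgeR adjusted p 0.573), and Usp2 averaged 12.7 ± 3.24 CPM in F1 chlordecone and 15.7 ± 0.928 CPM in F1 control libraries, which also overlapped. In the same generation, Tspan4, a tetraspanin, averaged 16.3 ± 1.63 CPM in chlordecone (SD, n = 3) and 10.8 ± 4.49 CPM in control libraries (SD, n = 2), and Leo1, a subunit of the PAF1 elongation complex, 28.7 ± 0.948 CPM in chlordecone and 36.0 ± 2.63 CPM in control libraries.

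Per1 also answers to glucocorticoids and to acute stimuli, so 2 further lists were read beside it. Glucocorticoid-responsive genes gave 0 calls of 7 in each generation with edgeR. At an unadjusted p under 0.05 there was 1 in F3 and 2 in F1, against 10.6% and 11.5% of all genes. DESeq2 called 0 in F3 and 1 in F1, against 1.28% and 3.89% of all genes. Fkbp5, a co-chaperone of the glucocorticoid and androgen receptors, had 40.8, 39.1 and 37.7 CPM in F3 chlordecone and 36.0, 33.7 and 29.5 CPM in F3 control libraries, a narrow separation (log2 fold change 0.25, SE 0.12, edgeR adjusted p 0.504). In F1 it had 42.5, 28.1 and 60.7 CPM in chlordecone and 14.6 and 10.2 CPM in control libraries (log2 fold change 1.82, SE 0.39, edgeR adjusted p 0.180, DESeq2 adjusted p 0.00159). Sgk1, a kinase induced by glucocorticoids, averaged 251 ± 17.8 CPM in F3 chlordecone and 190 ± 38.7 CPM in F3 control libraries, and 745 ± 339 CPM in F1 chlordecone and 355 ± 6.13 CPM in F1 control libraries, with edgeR adjusted p-values of 0.466 in F3 and 0.382 in F1. The list summed to 474 to 495 CPM in F3 chlordecone against 336 to 428 CPM in F3 control libraries, and to 812 to 1441 CPM in F1 chlordecone against 648 to 699 CPM in F1 control libraries, without overlap in either generation, and its median log2 fold change was 0.25 in F3 and 0.19 in F1. Sgk1 made up most of the F1 sum. Klf9 went the other way in F1, with 169, 141 and 144 CPM in chlordecone and 225 and 190 CPM in control libraries (log2 fold change -0.46, edgeR adjusted p 0.567). Zbtb16 had a log2 fold change of 0.58 in F3 (SE 0.30, edgeR adjusted p 0.515). The groups did not overlap for 2 of 7 genes of the list in F3, both higher, and for 3 of 7 in F1, 2 higher and 1 lower, against 16.6% and 31.3% of all genes. Immediate early genes, which rise within minutes of a stimulus, gave 0 calls of 9 in each generation with edgeR and with DESeq2. At an unadjusted p under 0.05 there was 1 in F3 and 2 in F1, against 10.6% and 11.5% of all genes. The median log2 fold change was -0.13 in F3 and -0.38 in F1. The groups did not overlap for 1 of 9 in F3, which was lower, and for 3 of 9 in F1, 1 higher and 2 lower, against 16.6% and 31.3% of all genes. They summed to 164 to 180 CPM in F3 chlordecone and 193 to 215 CPM in F3 control libraries, and to 126 to 172 CPM in F1 chlordecone and 149 to 171 CPM in F1 control libraries. Jun averaged 29.7 ± 3.47 CPM in F3 chlordecone and 38.9 ± 7.38 CPM in F3 control libraries, below every control in all 3 (log2 fold change -0.39, edgeR adjusted p 0.466). Nr4a1 had a log2 fold change of -0.80 in F1 (SE 0.31, edgeR adjusted p 0.383), Fosl2 one of 1.19 in F1 (SE 0.50, edgeR adjusted p 0.423) and Junb one of -0.48 in F3 (SE 0.27, edgeR adjusted p 0.534). The part of either list in the clock values was not tested.

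Some clock genes share exon bases with a gene on the other strand in GENCODE M21 (GRCm38), and the strand setting of the counting is not given in the sources used here. Dbp (chromosome 7, 45705088 to 45710203, plus strand) shares 539 bases with Sphk2, which was level in F3 at 62.4 ± 3.56 CPM in chlordecone and 60.2 ± 3.93 CPM in control libraries (SD, n = 3 each), a log2 fold change of 0.05. Nr1d1 (chromosome 11, 98767932 to 98775333, minus strand) shares 263 bases with Thra, a thyroid hormone receptor, which averaged 28.1 ± 8.23 CPM in F1 chlordecone (SD, n = 3) and 9.35 ± 2.55 CPM in F1 control libraries (SD, n = 2), a log2 fold change of 1.59 (edgeR adjusted p 0.198, DESeq2 adjusted p 0.00601). Whether reads from the shared bases entered the counts of Nr1d1 or Dbp was not tested, so that uncertainty stays with both. In F1 the gene models counted may also differ from those of GENCODE M21. Tef (chromosome 15, 81802421 to 81826863, plus strand) shares 193 bases with the antisense gene Gm17597, which averaged 0.0499 CPM in F3 chlordecone and 0.0550 CPM in F3 control libraries and was not analysed in F1. Arntl (chromosome 7, 113207465 to 113314126, plus strand) shares 33 bases with the antisense gene Gm45355, which was not analysed here. The other members lie at chromosome 11, 69095217 to 69109960 (Per1, plus strand), chromosome 1, 91415982 to 91459324 (Per2, minus strand), chromosome 4, 151003652 to 151044665 (Per3, minus strand), chromosome 10, 85131700 to 85185064 (Cry1, minus strand), chromosome 14, 18204054 to 18239127 (Nr1d2, minus strand) and chromosome 3, 95878503 to 95882251 (Ciart, minus strand).

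The genes whose profile lay nearest to that of Dbp over the 11 libraries were ranked among 11651 genes by the root-mean-square (RMS) difference of log2 CPM, each generation centred on its own mean. The nearest were Adam15 at 0.320, Ramp1 at 0.354, Cdkn1a at 0.365, Relb at 0.370 and Ndufaf5 at 0.378, where the Dbp profile itself has an RMS of 0.613. Ramp1, a subunit of the receptor for calcitonin gene-related peptide, had 20.3, 18.8 and 13.8 CPM in F3 chlordecone and 43.0, 59.8 and 38.4 CPM in F3 control libraries. Adam15, a membrane metalloprotease, had 44.3, 30.4 and 30.7 CPM in F3 chlordecone and 51.1, 65.8 and 48.6 CPM in F3 control libraries, with the same order as Dbp in the chlordecone libraries except for the last pair. Among the other members Nr1d1 was nearest to Dbp at 0.421 and Nr1d2 next at 0.482, while Arntl lay at 0.913. The nearest to Arntl, whose own RMS is 0.454, were Zfp641 at 0.212, Bcl9 at 0.276, Edaradd at 0.278, Exoc1 at 0.291 and Gmps at 0.293. Each of these 5 was lowest of the F3 libraries in F3 control 2, as Arntl was, which follows in part from choosing them by nearness to Arntl. The profiles come from the same libraries, which differ in depth and tissue, and the ranking is a description with no p.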

How the data were processed

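Poly-A RNA libraries made with a stranded kit, per the labels' protocols, were read from 1 table per generation. The authors deposited raw counts for each Ensembl gene, and beside them a log2 fold change and p-value of their own. Per the submitters' processing notes, reads were handled with HTSeq 0.6.1, Bowtie2 2.1.0, TopHat2 2.0.14 and bcl2fastq 2.17.1.14 on mm10, and DESeq2 1.6.3 was used. Neither the annotation release nor the strand setting is given in the sources used here. Columns headed K were read as chlordecone, from kepone. The F1 table held no mitochondrial gene and no gene under a total of 20 counts, while the F3 table went down to 1, so each generation was fitted alone.

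The test was that of edgeR 4.0.16 (R 4.3.3): filterByExpr (minimum count 10, minimum total 15), TMM scaling, a quasi-likelihood F test, two-sided, and Benjamini-Hochberg adjustment over all genes tested, with a threshold of 0.05. The scripts were tested on simulated counts. The interaction used 1 mean per group over genes in both tables. Groups were called not overlapping where every library of 1 group lay above every library of the other. Alternatives were leaving out each library, a block for the replicate number, 1 fit of all libraries, the Wald test of DESeq2 1.42.0 or its size factors alone, and, in place of the filter, none or a mean CPM of 1 or more. Promoters come from RefSeq (GRCm38.p6) and exon lengths and gene coordinates from GENCODE M21, matched by Ensembl identifier. The members and lists were chosen with earlier results of these data known. Every member is given. Of the other clock components and clock outputs, up to 5 genes with the smallest unadjusted p in either generation are named, of the glucocorticoid-responsive and immediate early lists up to 4, and 5 genes nearest to Dbp and to Arntl. Sphk2, Thra and the other antisense partners were named for their overlap with members.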

Additional observations from a re-analysis of the deposited data

How the results depend on the processing

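In F3, 10 genes and 0 members passed with edgeR. The count of genes was 38 with no filter, 230 with DESeq2 and 2 in 1 fit of all libraries, and 7 to 41 with each library left out, 41 being without F3 control 1 and 17 without F3 control 2. DESeq2 called 1 member, Dbp, and leaving out a library called 0. In F1, 5 genes and 0 members passed. The count was 21 with no filter, 700 with DESeq2, 930 in 1 fit of all libraries, 322 with the replicate block, and 0 to 2604 with each library left out. The members called were 1, Tef, with DESeq2 and in 1 fit of all libraries (adjusted p 0.0123), and 0 to 2 with a library left out. For the difference between generations, 122 genes and 0 members passed, 188 genes at a mean of at least 1 CPM, 1150 with DESeq2, 49 with the replicate block, and 27 to 2320 with each library left out, the highest without F1 chlordecone 2. The members called were 2 with DESeq2 and 0 to 3 with a library left out. Where 1 F1 control was left, it was taken to vary like the other groups. The cause of these shifts was not tested.

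Deviations of same-numbered F3 libraries from their group means correlated at 0.131, 0.0018 and 0.0019, and of F1 libraries at 0.0483 and 0.0583. Differently numbered F3 libraries ran from -0.220 to 0.206. These values cannot decide whether replicate numbers pair the libraries, since the groups are small and the 2 F1 controls deviate as mirror images. With the replicate block 0 members were called in each comparison. The F3 log2 fold change of Tef turned to 0.027 in 1 fit of all libraries and ran from -0.10 to 0.064 with a library left out. Other fold changes near 0 also turned sign with a library left out: in F3, Per1 (-0.016 to 0.28), Per3 (-0.070 to 0.19), Nr1d2 (-0.35 to 0.048) and Ciart (-0.046 to 0.16), in F1, Arntl (-0.37 to 0.37) and Ciart (-1.62 to 0.12), and for the difference, Per1 (-0.18 to 0.20). Dbp in F3 had an edgeR or DESeq2 adjusted p of 0.00141 to 0.895 over the alternatives, and Tef in F1 one of 0.0123 to 0.874. With 2 F1 controls and 3 libraries in the other groups, the number of libraries limits precision, and counting error adds to it where counts are low, the lowest count of a member being 28, for Per2 in F1 chlordecone 3.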
